A study of Mus musculus with 6 samples.

Results

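The genes that encode the proteins of the cytosolic ribosome were followed one by one in the spinal cord of mice with spinal muscular atrophy (SMA) and of their controls. Members were chosen by gene name: Rpl or Rps followed by digits and, optionally, the letters a, x or l, together with Rplp0, Rplp1, Rplp2, Rpsa, Rps27rt, Rps4x and Rps27a, while pseudogene names with -ps and the Rps6k kinases were dropped. The rule found 83 of the 25576 genes listed, 50 of the large and 33 of the small subunit. Bulk RNA sequencing covered 6 libraries of whole spinal cord from mice of strain FVB at postnatal day 4, made from total RNA after removal of ribosomal RNA. The 3 SMA libraries had the genotype mSmn-/-, hSMN22tg/0, with no functional mouse Smn gene and a human SMN2 transgene. The 3 control libraries had the genotype mSmn+/-, hSMN22tg/0, so the controls were not wild type: they carried the same transgene and had lost 1 of their mouse alleles. The labels do not say how many animals stand behind a library, and the study's methods, which speak of triplicates with an n of 1 per group, do not make plain whether each library came from a different animal, so p-values measure the spread between these libraries alone.

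Each cytosolic ribosome joins a small subunit, which reads the messenger RNA, with a large subunit, which forms the peptide bonds. Most ribosomal proteins enter each particle as a single copy, their messenger RNAs share a pyrimidine tract at the 5′ end through which growth signals set their translation together, and their genes have left many processed pseudogenes across mammalian genomes. A family member whose level moves away from the others therefore stands out, and near-identical sequences elsewhere in the genome make its level hard to measure by short reads.

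Levels are given as FPKM, a fragment count scaled by the length of the gene's exons and by the mapped fragments of the library, in the order of replicates 1, 2 and 3. Smn1, the gene targeted in these mice, had 10.4, 8.64 and 11.9 FPKM in the control libraries and 8.48, 9.30 and 11.1 FPKM in the SMA libraries. The groups overlapped, and the difference on the log2(FPKM + 1) scale was -0.09 ± 0.15 (SE, n = 3 per group; adjusted p of 0.819 by limma after Benjamini-Hochberg, two-sided exact permutation p of 0.6). The group labels thus have no check in the level of this gene.

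Control replicate 2 stood apart from the other 5 libraries before any ribosomal protein gene was compared. Its Pearson correlations with them across genes lay between 0.836 and 0.849, while the highest correlation of each other library lay between 0.987 and 0.992. The 18 hepatocyte markers, led by Alb, summed to 89.0, 31168 and 60.6 FPKM in control and 51.7, 111 and 59.8 FPKM in SMA libraries, which made 7.53% of the summed FPKM of control replicate 2. All 18 were highest in that library, and 1 of the 18 was at 0 in each of control replicate 1, control replicate 3 and SMA replicate 3. The 10 of 11 erythroid markers in the files, led by Hbb-bs and without Ahsp, summed to 1864, 18876 and 1180 FPKM against 1115, 1719 and 1333 FPKM. Neutrophil markers, 8 genes led by S100a8, summed to 12.2, 460 and 7.14 FPKM against 5.62, 7.02 and 7.14 FPKM. In the opposite direction, 12 spinal neuron markers led by Stmn2 summed to 1550, 835 and 1542 FPKM against 1504, 1638 and 1638 FPKM, and 11 of the 12 were lowest in control replicate 2. Many counts and differences are therefore given with and without it. Group means with an SD include it, and the order of some close means turns without it. What part these transcripts had in any ribosomal protein value was not tested.

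The libraries also differed in sex-linked transcripts. Xist, the RNA that silences an X chromosome in females, had 0.116, 101 and 0.0857 FPKM in control and 0.241, 0.216 and 146 FPKM in SMA libraries. The Y-linked gene Eif2s3y had 34.2, 10.1 and 32.7 FPKM in control and 33.6, 31.0 and 0.0325 FPKM in SMA libraries. The other 3 Y-linked genes of the list, Ddx3y, Kdm5d and Uty, were at 0 in SMA replicate 3 and above 0 in the other 5 libraries. SMA replicate 3 thus held Xist almost without Y transcripts, control replicate 2 held both, and the other 4 libraries held Y transcripts with Xist near 0. By these transcripts SMA replicate 3 differed in sex from SMA replicates 1 and 2, so the SMA libraries did not share a single animal. The oligodendrocyte lineage separated control replicate 3: its 7 markers, led by Mbp, summed to 781, 759 and 1171 FPKM in control and 620, 770 and 795 FPKM in SMA libraries.

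Most ribosomal protein transcripts were abundant, though their levels spanned a wide range. Of the 83 members, 58 had a mean between 50 and 250 FPKM over the 6 libraries, and 76 had a mean of at least 10 FPKM. The means of these 76 ran from 18.3 to 358 FPKM, with a median of 135 FPKM. Rpl10, which joins the large subunit late in its assembly, led with 353, 445 and 334 FPKM in control and 353, 350 and 314 FPKM in SMA libraries. Rps26, a protein at the exit of the messenger RNA channel, followed with 385, 402 and 242 FPKM in control and 384, 360 and 366 FPKM in SMA libraries. In both genes the groups overlapped, and control replicate 2 held the highest value. The next means were 340 FPKM for Rps12 and 335 FPKM for Rps15, both of the small subunit, and 319 FPKM for Rpl41, which encodes the smallest protein of the ribosome.

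**Figure D1:**
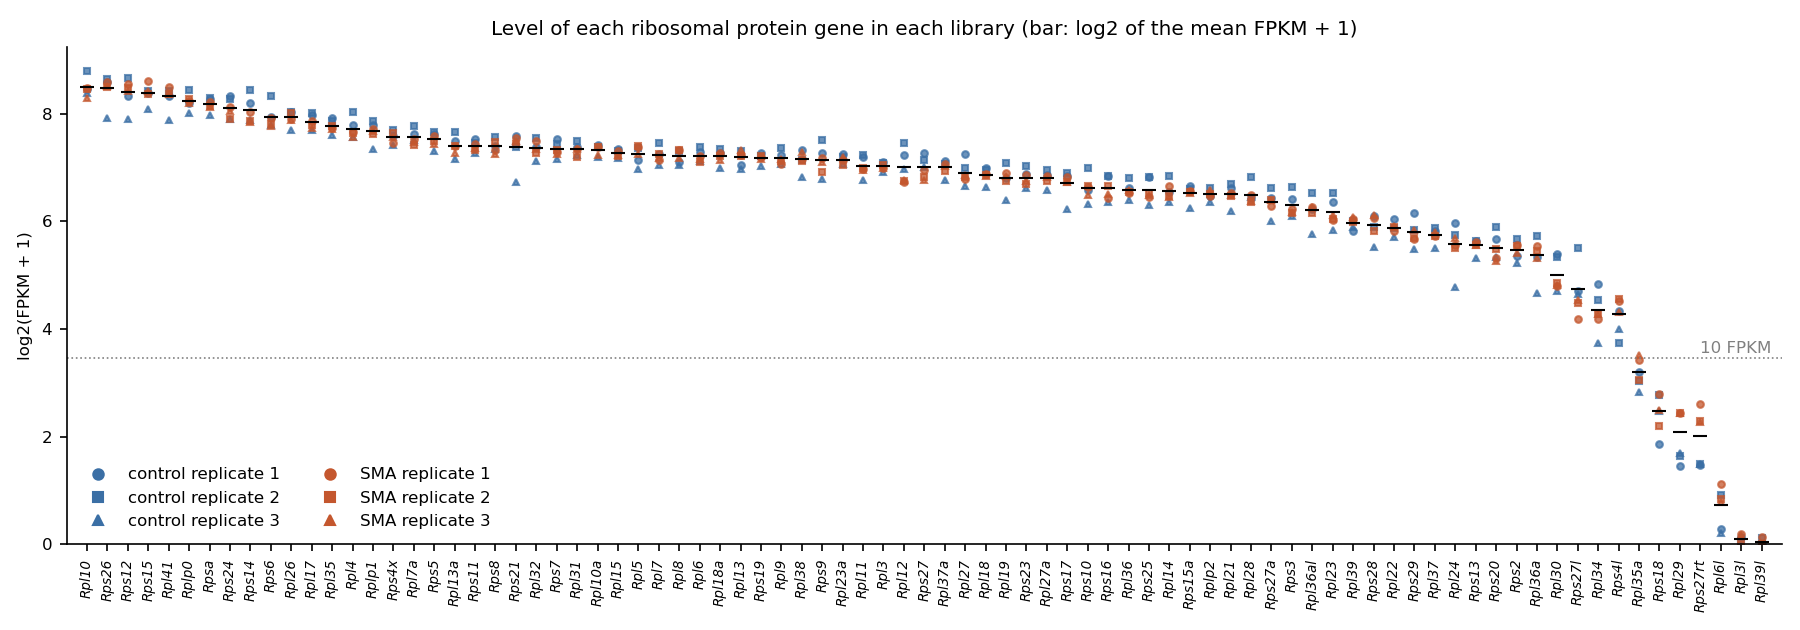
The log2(FPKM + 1) of each of the 83 members is plotted by gene, ordered by mean, with 1 symbol per library, a bar at the mean and a dotted line at 10 FPKM. Most members have a mean between 50 and 250 FPKM, and 7 genes from Rpl35a to Rpl39l lie under the line.

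At the other end, 7 members had a mean under 10 FPKM. Rpl3l, a paralog used in striated muscle, averaged 0.0665 FPKM, and Rpl39l, a paralog known from the testis, averaged 0.0297 FPKM; both were at 0 in some libraries and were not tested, which left 81 members above 0 in every library and tested. Rpl35a with 8.15 FPKM, Rps18 with 4.53 FPKM, Rpl29 with 3.23 FPKM, Rps27rt with 3.02 FPKM and Rpl6l with 0.660 FPKM were the other 5. GENCODE annotates Rpl6l as a processed pseudogene and Rps4l, the lowest of the 76 with 18.3 FPKM, as a transcribed processed pseudogene. Rpl35a, Rps18 and Rpl29 encode standard ribosomal proteins, so their low listed levels set them apart from the genes whose products share the same particle.

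Near-identical copies are a property that the name rule did not use. By sequence search, 75 of the 83 members had at least 1 other gene or pseudogene of at least 95% identity over at least 80% of the coding length, and 17 had at least 10. The median member had 5 such copies, Rpl21 had the most with 57, and 8 members had none. Across the 83 members, the Spearman correlation of mean FPKM with the number of copies was 0.101, a description over genes that are not independent replicates. How the authors' counting shared reads between copies is not given in the sources used here, so the level of a member with copies is uncertain.

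As a whole, the family took 3.19%, 2.98% and 2.68% of the summed FPKM in control and 3.01%, 2.92% and 2.87% in SMA libraries. These shares averaged 2.95% ± 0.257 in control and 2.94% ± 0.0714 in SMA (SD, n = 3 per group; two-sided exact permutation p of 1, where 0.1 is the smallest p that 3 against 3 libraries allow). The 3 SMA shares lay inside the range of the control shares. The median level of the 76 more abundant members was 147, 147 and 116 FPKM in control and 133, 129 and 133 FPKM in SMA libraries (137 ± 17.7 against 131 ± 2.36, SD; exact permutation p of 0.6, n = 3 per group). Of these 76 members, 44 were highest in control replicate 2 and 24 in control replicate 1, while 58 were lowest in control replicate 3, so the control libraries bracketed the SMA libraries for most genes. In bulk tissue, fewer cells of a type and less RNA per cell cannot be told apart, which holds for each level given here.

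**Figure D2:**
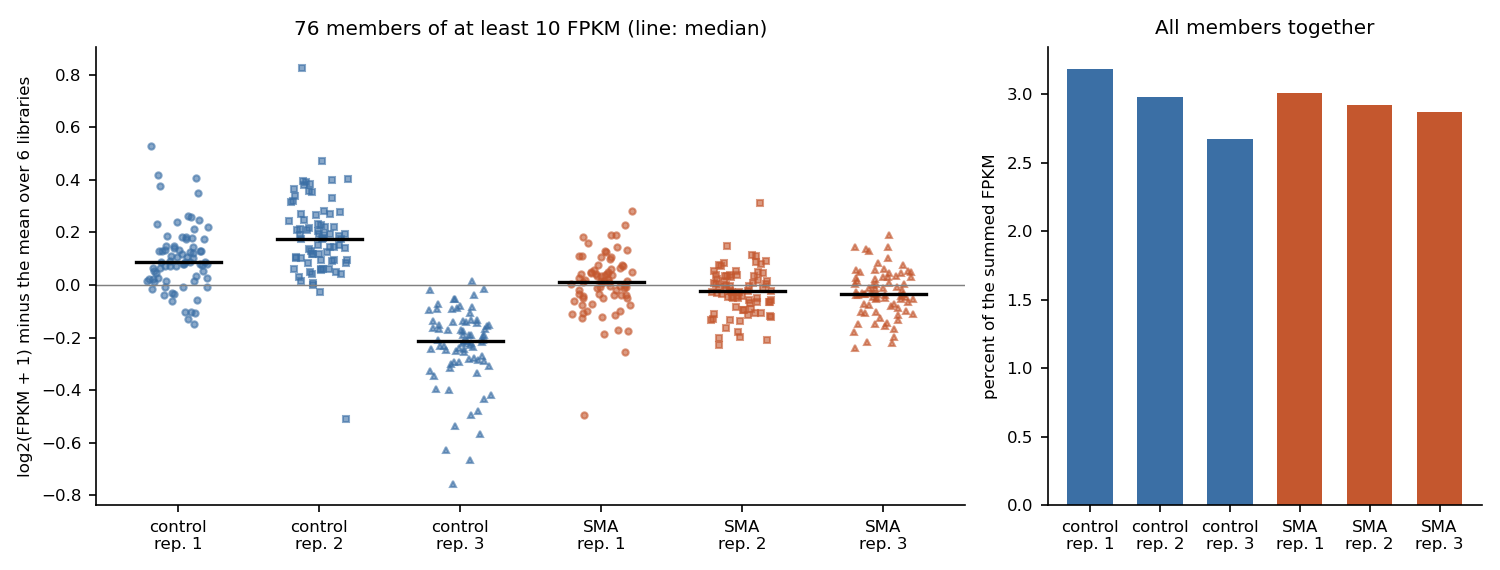
Left, for each library, log2(FPKM + 1) of the 76 members of at least 10 FPKM minus each gene's mean over the 6 libraries, with a line at the median; right, the family's percent of the summed FPKM. Control replicates 1 and 2 lie above and control replicate 3 below the 3 SMA libraries on the left, and on the right the SMA bars of 2.87% to 3.01% lie within the control range of 2.68% to 3.19%.

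SMA was compared with control by limma on log2(FPKM + 1), with p-values adjusted by Benjamini-Hochberg over the 17088 genes whose mean reached 0.5 FPKM. By limma with Benjamini-Hochberg adjustment, 0 of the 81 tested members passed an adjusted p of 0.05, as did 0% of all genes tested, with a smallest adjusted p of 0.683. At an unadjusted p under 0.05, 3 members were higher in SMA, Rpl29, Rps27rt and Rps4l, beside 3.4% of all genes tested. Lower in SMA at that threshold were 2 members, Rpl12 and Rps27, beside 2.39% of all genes. The counts of 3 and 2 members, which make 3.70% and 2.47% of the 81, were near these background shares. They moved with single libraries: 12 were higher without control replicate 2, beside 5.27% of all genes, and 11 were lower without control replicate 3, beside 4.16%. Without control replicate 1, 1 was lower, beside 3.35% of all genes, and 1 was lower without SMA replicates 1, 2 or 3, beside 1.79%, 0.830% and 0.731%.

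Groups that did not overlap were counted as well. The SMA libraries lay above the 3 control libraries in 2 members, Rpl29 and Rps27rt, beside 10.3% of all genes, and below them in 3 members, Rpl12, Rps27 and Rps27l, beside 6.67% of all genes. The first count became 5 without control replicate 1, 12 without control replicate 2, 5 without SMA replicate 2 and 5 without SMA replicate 3, where 21.6%, 14.2%, 14.1% and 13.5% of all genes did so. The second became 48 without control replicate 3, where 13.5% of all genes did so, 6 without SMA replicate 1, beside 11.6%, and 5 without SMA replicate 2, beside 8.92%. Without control replicate 3, 2 members lay above, beside 20.7% of all genes. With all 6 libraries rescaled to the same total, 7 members lay above, 8.64% beside 6.999% of all genes, and 5 below, beside 6.55%. Quantile normalization gave 4 above, beside 11.4%, and 5 below, beside 6.03%. Median ratio scaling kept 2 above and 3 below, beside 8.28% and 8.87%. Over all 6 libraries, the share of members above was thus under that of all genes on the deposited scale, but somewhat over it with rescaled totals. Without control replicate 2, the share on the deposited scale was also slightly over that of all genes, 14.8% beside 14.2%.

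The median log2 difference of the 81 members, SMA minus control, was -0.01 on the deposited scale, -0.07 after median ratio scaling and -0.02 after quantile normalization, but 0.01 with libraries rescaled to the same total, so the family had no direction that held under each scaling. Over all genes tested the median was 0.04, and 35 of the 81 members had a positive difference, beside 58.0% of all genes. The 35 became 48 without control replicate 1, 49 without replicate 2 and 14 without replicate 3, beside 59.6%, 50.4% and 59.4% of all genes. With libraries rescaled to the same total it was 43, and 22 after median ratio scaling, beside 61.1% and 49.3%. The family median was 0.04 without control replicate 2, 0.03 without control replicate 1 and -0.12 without control replicate 3, where 2 members were higher and 11 lower at an unadjusted p under 0.05, beside 6.07% and 4.16% of all genes. These shifts between control libraries are larger than the group difference.

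To find single genes apart from the family, the median of log2(FPKM + 1) over the 76 more abundant members was subtracted within each library, which is called the centred scale. The centre comes from the members themselves, so it removes library shifts that they share and adds those shifts to genes without them. Shares of all genes on this scale are therefore not a like background for the members. On it, 62 of the 76 had a centred difference of less than 0.2 in size, and 58 did so without control replicate 2. These same 76 set the centre, so small centred differences are partly built in. No share of all genes was counted beside them. By limma with Benjamini-Hochberg adjustment, 0 of 81 members passed an adjusted p of 0.05 on the centred scale, as did 0% of all genes, with a smallest adjusted p of 0.838. At an unadjusted p under 0.05, Rpl29, Rps27rt and Rps4l were the 3 higher members, beside 1.77% of all genes, and Rpl12 was the 1 lower member, beside 1.18%. The first count became 9 without control replicate 2, beside 2.06% of all genes. The second became 2 without any 1 of the 3 control libraries, beside 4.83%, 2.05% and 1.18% of all genes without replicates 1, 2 and 3, and 0 without any 1 of the 3 SMA libraries, beside 0.837%, 0.351% and 0.281%.

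Centred groups did not overlap in 15 members with the SMA libraries above, beside 5.74% of all genes, and in 5 with them below, beside 3.8%. Before centring these shares of all genes were 10.3% and 6.67%, so the centring itself changed the background. The 15, named after their values were seen, were Rpl5, Rpl6l, Rpl13, Rpl26, Rpl29, Rpl35a, Rpl37a, Rpl41, Rps4l, Rps13, Rps15, Rps15a, Rps21, Rps26 and Rps27rt, and the 5 were Rpl12, Rps3, Rps14, Rps27 and Rps27l. The 15 became 25 without control replicate 2, beside 7.43% of all genes, and 23 without SMA replicate 3, beside 8.64%. Without control replicate 3 the 15 became 20, which is 24.7% of the members beside 46.5% of all genes. The 5 became 16 without control replicate 1, beside 14.99% of all genes, 11 without control replicate 3, beside 4.76%, 8 without SMA replicate 1, beside 6.78%, and 9 without SMA replicate 2, beside 5.77%. Both counts thus depended on which library was left out.

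**Figure D3:**
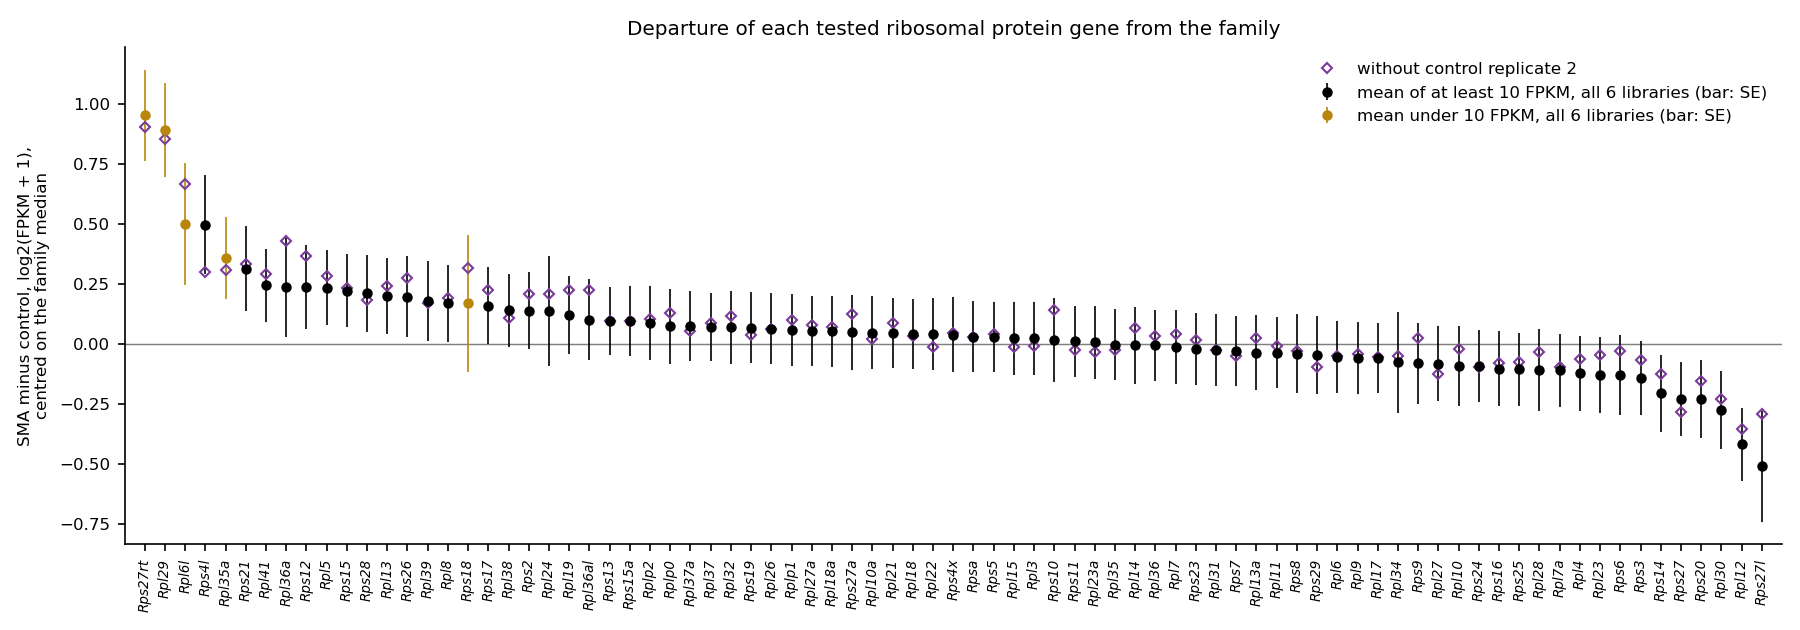
The SMA minus control difference of log2(FPKM + 1), centred on the family median, is shown for each of the 81 tested members in falling order, with bars for the SE and open symbols for the value without control replicate 2. Most genes lie near 0, Rps27rt and Rpl29 lie highest, and Rps27l and Rpl12 lie lowest, with no gene past an adjusted p of 0.05 by limma after Benjamini-Hochberg.

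Leaving out control replicate 2 gave 16574 tested genes. On the deposited scale, limma with Benjamini-Hochberg adjustment then called 0 of the 81 members and 0.0121% of all genes, with 12 members higher, beside 5.27% of all genes, and 3 lower, beside 5.2%, at an unadjusted p under 0.05. On the centred scale limma with Benjamini-Hochberg adjustment called 0 members and 0.0965% of all genes, with 9 members higher, beside 2.06%, and 2 lower, beside 2.05%, at an unadjusted p under 0.05. The 12 higher members on the deposited scale, listed after their values were seen, were Rpl5, Rpl6l, Rpl8, Rpl13, Rpl29, Rpl36a, Rpl39, Rpl41, Rps2, Rps12, Rps27rt and Rps4l, and the 3 lower ones were Rpl12, Rps27 and Rps27l.

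Rps27, Rps27rt and Rps27l are 3 genes for versions of the same small-subunit protein, which carries a zinc finger, and all 3 were among the members farthest from the family. Rps27 had 152, 140 and 128 FPKM in control and 124, 113 and 109 FPKM in SMA libraries. The SMA libraries lay below the control libraries, though the highest SMA value came within a few FPKM of the lowest control value. The difference was -0.28 ± 0.11 on the log2(FPKM + 1) scale (SE, n = 3 per group; adjusted p of 0.683 by limma after Benjamini-Hochberg, exact permutation p of 0.1), lower in 3 of 3 SMA libraries. Centred on the family it was -0.23, and -0.29 without control replicate 2. Rps27 no longer had an unadjusted p under 0.05 without control replicate 1 or any 1 SMA library, nor with the replicate block, robust eBayes or libraries rescaled to the same total.

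Rps27rt, a retrotransposed gene on another chromosome, had 1.76, 1.82 and 1.81 FPKM in control and 5.07, 3.88 and 3.81 FPKM in SMA libraries. The 3 SMA libraries lay above the 3 control libraries, which were almost equal. The SMA mean was 2.37 times the control mean, and the log2(FPKM + 1) difference was 0.90 ± 0.14 (SE, n = 3 per group; adjusted p of 0.683 by limma after Benjamini-Hochberg, exact permutation p of 0.1), centred 0.95, or 0.90 without control replicate 2. Rps27l, which p53 can induce, had 25.2, 44.4 and 24.3 FPKM in control and 17.2, 21.3 and 22.1 FPKM in SMA libraries. Its groups did not overlap either, and its highest value by far was in control replicate 2. Its log2(FPKM + 1) difference was -0.56 ± 0.24 (SE, n = 3 per group; adjusted p of 0.683 by limma after Benjamini-Hochberg, exact permutation p of 0.1), centred -0.51, and -0.29 without control replicate 2.

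The coding sequences of the trio show which reads can be told apart. They are printed because the opposite differences of Rps27 and Rps27rt fall on 1 sequence: the coding sequence of 255 bases is identical in both genes, with 0 differing bases, while Rps27l differs from it at 61 bases (76.1% identity), which capitals mark. GENCODE M21 on build GRCm38.p6 places Rps27 at chr3:90212522-90213651 on the minus strand, Rps27rt at chr9:114982366-114982739 on the minus strand and Rps27l at chr9:66946086-66949516 on the plus strand.
Rps27 and Rps27rt: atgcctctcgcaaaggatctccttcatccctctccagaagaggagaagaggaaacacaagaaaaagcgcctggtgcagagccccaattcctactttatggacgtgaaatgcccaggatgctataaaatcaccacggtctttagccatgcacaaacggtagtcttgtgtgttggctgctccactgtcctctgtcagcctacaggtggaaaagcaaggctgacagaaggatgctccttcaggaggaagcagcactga
Rps27l: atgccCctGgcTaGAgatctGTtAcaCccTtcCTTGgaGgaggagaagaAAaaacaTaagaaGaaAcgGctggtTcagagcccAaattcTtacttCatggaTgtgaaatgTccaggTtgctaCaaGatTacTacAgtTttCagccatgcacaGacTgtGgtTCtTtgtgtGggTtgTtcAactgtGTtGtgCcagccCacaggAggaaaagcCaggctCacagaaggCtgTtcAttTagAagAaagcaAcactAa

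A read from within the coding sequence of Rps27 or Rps27rt can therefore not be told apart by its bases, and both levels are uncertain. Summed, Rps27 and Rps27rt had 154, 142 and 130 FPKM in control and 129, 117 and 112 FPKM in SMA libraries, an alternative chosen after seeing the data. The sum was lower in the SMA libraries, by a log2(FPKM + 1) difference of -0.25, while on the centred scale the groups overlapped with a difference of -0.19, and 2.31% of it was listed under Rps27rt. The higher listed level of Rps27rt in SMA thus makes up a small part of the pair. GENCODE also places Rps27rt within Osbpl10, a lipid-binding protein gene on the opposite strand, and although the libraries were strand-specific, whether the counting used the strand is not given in the sources used here.

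Rpl29, which encodes a small basic protein of the large subunit, had 1.74, 2.11 and 2.26 FPKM in control and 4.42, 4.41 and 4.43 FPKM in SMA libraries. The 3 SMA libraries were nearly equal and lay above the 3 control libraries. The SMA mean was 2.17 times the control mean, and the log2(FPKM + 1) difference was 0.84 ± 0.12 (SE, n = 3 per group; adjusted p of 0.683 by limma after Benjamini-Hochberg, exact permutation p of 0.1), centred 0.89 ± 0.20, or 0.85 without control replicate 2. Rpl29 had 27 near-identical copies, 11 of them in the files, and 2 processed pseudogenes carried most of the listed level. Gm13841 had 59.7, 59.4 and 47.7 FPKM in control and 58.6, 53.3 and 52.8 FPKM in SMA libraries. Gm8210 had 48.4, 52.4 and 42.1 FPKM in control and 52.2, 48.9 and 50.1 FPKM in SMA libraries. Both pseudogenes overlapped between the groups, with control replicate 3 lowest in each, and both names lie outside the rule and were chosen after their values were seen.

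A window of the coding sequence, bases 274 to 423 of 483, is printed to show how few bases separate Rpl29 from these copies. Each pseudogene differs from Rpl29 at 3 of the 483 bases, 2 of which fall in the window of 150 bases and are in capitals, and the pseudogenes are identical to each other. In GENCODE M21 on GRCm38.p6, Rpl29 lies at chr9:106429454-106431568 on the plus strand, Gm13841 at chr5:115801677-115802159 on the minus strand and Gm8210 at chr1:43189156-43189638 on the plus strand.
Rpl29: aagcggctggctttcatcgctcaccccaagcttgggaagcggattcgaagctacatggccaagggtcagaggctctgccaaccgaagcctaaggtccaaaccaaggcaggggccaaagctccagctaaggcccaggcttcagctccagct
Gm13841 and Gm8210: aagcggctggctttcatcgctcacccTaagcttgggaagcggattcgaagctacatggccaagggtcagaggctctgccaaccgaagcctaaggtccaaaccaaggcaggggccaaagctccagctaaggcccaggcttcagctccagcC

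Summed with its copies, Rpl29 had 126, 125 and 104 FPKM in control and 128, 121 and 121 FPKM in SMA libraries. On this sum, a choice made after seeing the data, the groups overlapped in FPKM. On the centred scale the 3 SMA libraries lay above the controls also for the sum, with a log2(FPKM + 1) difference of 0.12 in place of 0.89. Of the summed level, 2.67% was listed under Rpl29 itself, and the sum is close to the median of 135 FPKM of the more abundant members. The level of Rpl29 is therefore uncertain.

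Rpl12, which sits at the base of the stalk of the large subunit, was lower in the SMA libraries and, like Rps27, near the family in mean level. It had 149, 174 and 124 FPKM in control and 105, 107 and 108 FPKM in SMA libraries. The SMA libraries were nearly equal and lay below each control library, with control replicate 2 highest. The SMA mean was 0.714 times the control mean, and the log2(FPKM + 1) difference was -0.47 ± 0.14 (SE, n = 3 per group; adjusted p of 0.683 by limma after Benjamini-Hochberg, exact permutation p of 0.1), centred -0.42, and -0.36 without control replicate 2. Of its 6 near-identical copies, Gm10275, a transcribed processed pseudogene named here after its values were seen, has 0 differing bases over the 498 coding bases. Gm10275 had 33.7, 32.9 and 23.3 FPKM in control and 33.9, 30.4 and 29.1 FPKM in SMA libraries, so its groups overlapped. Summed with its copies, Rpl12 had 183, 207 and 147 FPKM in control and 139, 137 and 137 FPKM in SMA libraries. The SMA libraries still lay below the control libraries on this sum, 80.6% of which was listed under Rpl12, with a centred difference of -0.31. Rpl12 lies at chr2:32961559-32965345 on the plus strand, contains the small nucleolar RNA gene Snora65 and overlaps Lrsam1, a ubiquitin ligase gene on the opposite strand, so the source of its reads is uncertain too.

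**Figure D4:**
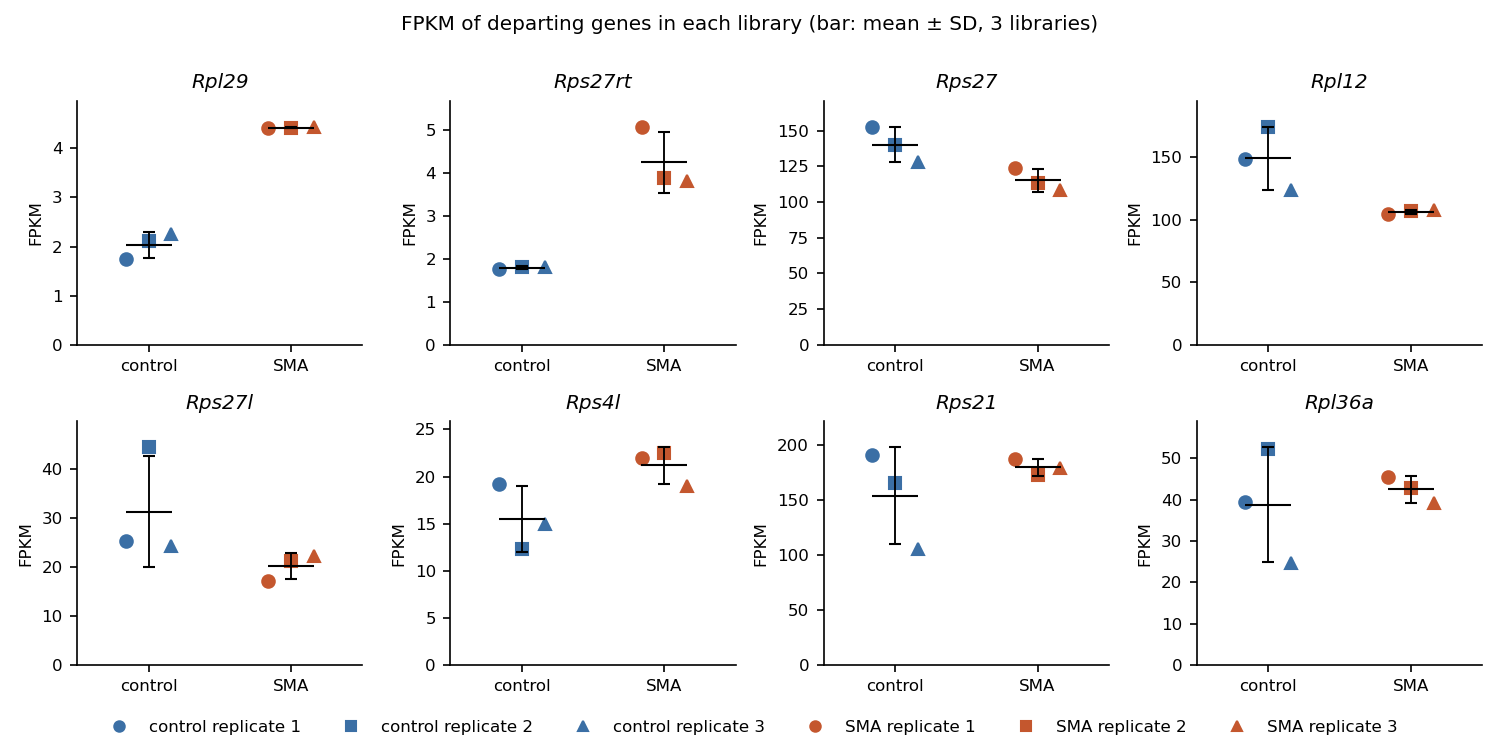
FPKM of 8 members far from the family is plotted for control and SMA, with 1 symbol per library and bars for mean ± SD over 3 libraries. Rpl29 and Rps27rt lie higher and Rps27, Rpl12 and Rps27l lower in each SMA library than in each control library, while the groups of Rps4l, Rps21 and Rpl36a overlap.

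Of the other low members, Rps18, Rpl35a and Rpl6l had copies, while Rpl3l and Rpl39l had 0. Rps18, a protein of the head of the small subunit, had 2.63, 5.86 and 4.59 FPKM in control and 5.88, 3.59 and 4.64 FPKM in SMA libraries. Its groups overlapped, and its copy Gm10260, named after its values were seen, had 59.3, 79.8 and 59.0 FPKM in control and 63.1, 77.0 and 71.6 FPKM in SMA libraries. With its copies Rps18 reached 68.2, 95.1 and 69.5 FPKM in control and 75.3, 89.8 and 83.0 FPKM in SMA libraries, of which 5.65% was listed under Rps18, and the groups overlapped. Its centred log2(FPKM + 1) difference of 0.17 was -0.15 without control replicate 1 and between 0.031 and 0.33 without any other 1 library. Rpl35a, of the large subunit, had 8.16, 7.20 and 6.12 FPKM in control and 9.69, 7.26 and 10.4 FPKM in SMA libraries. Its groups overlapped in FPKM but not on the centred scale, where the difference was 0.36. With its copies Rpl35a had 24.4, 23.9 and 16.9 FPKM in control and 27.6, 26.0 and 31.0 FPKM in SMA libraries. On that sum the SMA libraries lay above the control libraries, with a centred difference of 0.43 and 32.6% listed under Rpl35a.

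Rpl6l, a processed pseudogene with 98.7% identity to Rpl6, had 0.219, 0.886 and 0.154 FPKM in control and 1.18, 0.796 and 0.720 FPKM in SMA libraries. Control replicate 2 lay inside the SMA range in FPKM and the other control libraries below it, while the centred groups did not overlap. The centred log2(FPKM + 1) difference was 0.50, or 0.67 without control replicate 2. At this low level it rested on the pseudocount, with 1.24 for a pseudocount of 0.1. With that pseudocount, or with libraries rescaled to the same total, the centred groups of Rpl6l overlapped. With its copies, Rpl6 among them, the sum was 160, 170 and 141 FPKM in control and 153, 141 and 147 FPKM in SMA libraries, 0.435% of it listed under Rpl6l, and the centred difference of the sum was -0.033. The groups overlapped on that sum, so the listed level of Rpl6l is uncertain.

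**Figure D5:**
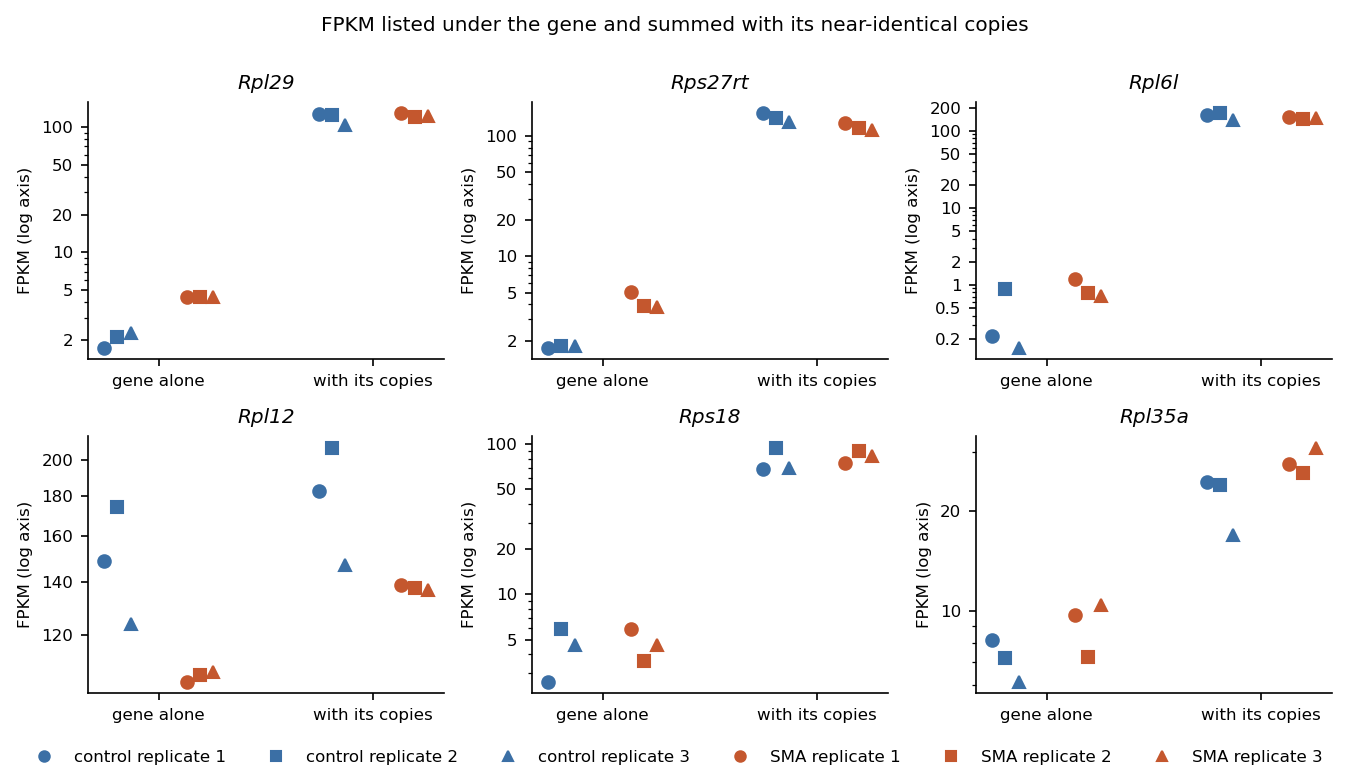
FPKM on a log axis is plotted for 6 members as listed under the gene, left in each panel, and summed with near-identical copies, right, with 1 symbol per library. The groups separate for Rpl29 and Rps27rt alone and overlap for the Rpl29 sum, the Rps27rt sum lies lower in SMA, and Rpl12 lies lower in SMA both alone and summed.

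Among the members of at least 10 FPKM, Rps4l had the highest centred difference over all 6 libraries. This autosomal copy of the X-linked gene Rps4x had 19.2, 12.3 and 14.9 FPKM in control and 22.02, 22.5 and 19.0 FPKM in SMA libraries. Control replicate 1 lay just above SMA replicate 3, so the groups overlapped in FPKM but not on the centred scale, and control replicate 2 was lowest. The log2(FPKM + 1) difference was 0.45 ± 0.17 (SE, n = 3 per group; adjusted p of 0.683 by limma after Benjamini-Hochberg, exact permutation p of 0.2), centred 0.50, and 0.30 without control replicate 2. Rps4l no longer had an unadjusted p under 0.05 by limma without control replicate 3 or SMA replicate 1 or 2. The same held with libraries rescaled to the same total. On the centred scale it was lost without control replicate 2, without any single SMA library and with the replicate block. Rps4l lies within Tmtc1, a gene on the opposite strand in GENCODE, and its level is uncertain for that reason.

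The next 5 members in falling order were Rps21, Rpl41, Rpl36a, Rps12 and Rpl5. Rps21, a small protein of the small subunit, had 191, 165 and 105 FPKM in control and 187, 172 and 179 FPKM in SMA libraries. Its SMA values lay inside the control range, with control replicate 3 far below the other 5 libraries, and its centred difference was 0.31, or 0.33 without control replicate 2. Rpl41 had 322, 340 and 237 FPKM in control and 359, 328 and 329 FPKM in SMA libraries. Again control replicate 3 was lowest and the groups overlapped in FPKM. Centred on the family, the SMA libraries of Rps21 and Rpl41 lay above the controls, and the Rpl41 difference was 0.24, or 0.29 without control replicate 2.

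Rpl36a, an X-linked gene of the large subunit, had 39.4, 52.3 and 24.6 FPKM in control and 45.4, 42.9 and 39.1 FPKM in SMA libraries. The 3 SMA values fell between the extremes of the controls, and the centred difference was 0.24 with control replicate 2 and 0.43 without it. Rps12, of the small subunit, had 322, 405 and 237 FPKM in control and 375, 357 and 342 FPKM in SMA libraries. The control range again enclosed the SMA values, and the centred difference was 0.24, or 0.36 without control replicate 2. Rpl5, which carries the 5S ribosomal RNA into the large subunit, had 140, 164 and 124 FPKM in control and 166, 168 and 151 FPKM in SMA libraries. Control replicate 2 lay within its SMA range in FPKM, while the centred groups did not overlap, and the centred difference was 0.23, or 0.28 without control replicate 2.

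On the lower side, Rpl30, Rps20 and Rps14 were with Rps27l, Rpl12 and Rps27 the 6 lowest of these members. Rpl30, of the large subunit, had 41.0, 39.6 and 25.1 FPKM in control and 26.8, 27.9 and 27.1 FPKM in SMA libraries. Its SMA libraries lay near control replicate 3 and below the other controls, so the groups overlapped, with a centred difference of -0.28. Summed with its copies it was 76.6, 78.8 and 52.2 FPKM in control and 63.0, 61.4 and 60.4 FPKM in SMA libraries, with 47.8% listed under Rpl30 and a centred difference of -0.09. Rps20, of the small subunit, had 49.9, 58.4 and 39.6 FPKM in control and 39.0, 43.8 and 37.2 FPKM in SMA libraries. SMA replicate 2 exceeded control replicate 3, and the centred difference was -0.23. Rps14, a small-subunit protein whose loss on one allele marks a human myelodysplastic syndrome, had 291, 348 and 235 FPKM in control and 262, 232 and 229 FPKM in SMA libraries. SMA replicate 1 lay above control replicate 3 in FPKM, while the centred groups did not overlap, and the centred difference was -0.21, or -0.12 without control replicate 2.

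The 3 proteins of the P stalk, which recruits translation factors to the large subunit, are encoded by Rplp0, Rplp1 and Rplp2. Rplp0, the stalk's anchor, had 298 ± 43.7 FPKM in control and 301 ± 9.12 FPKM in SMA (SD, n = 3 per group). Rplp1 had 205 ± 37.95 FPKM in control and 204 ± 6.44 FPKM in SMA, with the wider spread again in the controls. The median difference of the stalk genes was 0.02 beside 0.04 for all genes, and without control replicate 2 it was 0.11 beside 0.0016. By limma 0 of 3 were higher and 0 lower at an unadjusted p under 0.05 in both settings. Beside this, 3.4% of all genes were higher and 2.39% lower over all 6 libraries, and 5.27% and 5.2% without control replicate 2.

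The 5S particle joins Rpl5 with Rpl11, and outside the ribosome both bind Mdm2, the ligase that degrades p53. Rpl11 had 146, 149 and 108 FPKM in control and 125, 127 and 122 FPKM in SMA libraries. Its SMA values lay inside the control range, where those of Rpl5 reached above it, so the difference on the log2(FPKM + 1) scale was -0.09 for Rpl11 and 0.18 for Rpl5. Neither passed an unadjusted p of 0.05 by limma over all 6 libraries, and Rpl5 did so without control replicate 2.

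X-linked members were read beside Xist, which differed between the libraries. Together Rpl10, Rps4x, Rpl39 and Rpl36a summed to 639, 766 and 587 FPKM in control and 637, 655 and 609 FPKM in SMA libraries. The sum was highest in control replicate 2, which held Xist, while SMA replicate 3, which held more Xist, was the lowest SMA library. Rps4x had 189 ± 17.7 FPKM in control and 187 ± 13.1 FPKM in SMA (SD, n = 3 per group). At an unadjusted p under 0.05 by limma, 0 of 4 X-linked members were higher and 0 lower, beside 3.4% and 2.39% of all genes. Without control replicate 2, 2 were higher, Rpl36a and Rpl39, beside 5.27% of all genes. Paralogs of standard members were listed as well: of the 7 listed, 6 were in the files and 4 were tested, of which limma at an unadjusted p under 0.05 found 2 higher, Rps27rt and Rps4l, and 0 lower, beside 3.4% and 2.39% of all genes, with a median difference of 0.25 beside 0.04 for all genes. Of their 6 parent genes, 0 were higher and 1, Rps27, was lower, with a median of -0.02. Without control replicate 2, 2 paralogs were higher and 1, Rps27l, was lower, with a median of 0.27, while 2 parents, Rpl36a and Rpl39, were higher and 1, Rps27, was lower, with a median of 0.02 beside 0.0016 for all genes, of which 5.27% were higher and 5.2% lower. Rpl3, the parent of Rpl3l and a large-subunit protein, had 137, 135 and 120 FPKM in control and 126, 132 and 126 FPKM in SMA libraries, which overlapped. Rpl36al, the autosomal paralog of Rpl36a, had 73.0 ± 19.0 FPKM in control and 73.9 ± 3.1 FPKM in SMA.

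Mutations in 15 members listed here are known from Diamond-Blackfan anaemia, a failure of red cell formation. In these genes the median difference was -0.03, beside 0.04 for all genes, and by limma 0 were higher and 1, Rps27, was lower at an unadjusted p under 0.05, beside 3.4% and 2.39% of all genes. Rps19, the gene most often mutated in that disease and named after its values were seen, had 153, 148 and 129 FPKM in control and 146, 148 and 141 FPKM in SMA libraries. Its groups overlapped and its means were 143 ± 12.6 and 145 ± 3.34 FPKM (SD, n = 3 per group). Without control replicate 2 the median of the 15 was 0.04 beside 0.0016 for all genes, and 1, Rpl5, was higher and 1, Rps27, lower, beside 5.27% and 5.2% of all genes.

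Single genes also departed within control libraries, on the centred scale against the median of the other 5 libraries. In control replicate 2, the library with hepatocyte and blood transcripts, Rps27l was 0.83 above the family, Rpl12 0.51, Rps10 0.34 and Rps6 0.33. In the same library Rps4l lay at -0.73, Rps21 at -0.25, Rps28 at -0.21 and Rpl39 at -0.19. Rps27l, Rpl12, Rps6, Rps4l, Rps28 and Rpl39 thus departed in control replicate 2 with the sign opposite to their centred SMA minus control difference. These differences were smaller in size without that library. The genes were picked for their departure in control replicate 2, which enters the control mean. Opposite signs and smaller differences without it therefore follow in part from that choice. Rps21 had the opposite sign too, but its difference was 0.31 over all 6 libraries and 0.33 without control replicate 2. Rps10 departed with the sign of its difference, which was 0.01 over all 6 libraries and 0.14 without control replicate 2. In control replicate 3, chosen after its values were seen, Rpl24 lay at -0.64, Rpl36a at -0.63, Rps21 at -0.56 and Rps12 at -0.44. Rpl36a, Rps21 and Rps12 were among the highest centred differences over all 6 libraries, and without control replicate 3 these were 0.06 for Rpl36a, 0.18 for Rps21 and 0.15 for Rps12.

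Start sites bear on the family because the pyrimidine tract at the 5′ end marks its messenger RNAs. RefSeq promoter entries of build GRCm38.p6 matched 61 of the 83 members, or 73.5%, so a comparison of the family with other promoters is void: the start of too many members is unknown. Runs of at least 6 bases made of C and T alone were searched on the gene's strand and counted where they reached within 10 bases of the annotated start on either side, and 29.2% of all 32851 promoters held such a run. Of the 61 members, 38 held a run at 1 or more of their starts. By the same count, 32.7% of all genes with a promoter entry did so. Because of the missing starts, no difference between members and other genes is read from these figures. Rpl41 and 1 of the starts of Rps21 are among those without a run. The windows of 3 members that the results turn on are printed from 10 bases before to 20 bases after the start, with runs in capitals, cut at the window's edges: Rps27 at chr3:90213629-90213658 on the minus strand, Rps27rt at chr9:114982720-114982749 on the minus strand and Rpl12 at chr2:32961702-32961731 on the plus strand.
Rps27: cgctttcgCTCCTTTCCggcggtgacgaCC
Rps27rt: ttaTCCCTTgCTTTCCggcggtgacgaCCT
Rpl12: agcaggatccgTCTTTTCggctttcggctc

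The windows of Rps27 and Rps27rt share an unbroken stretch of 19 bases, so the retrotransposed gene resembles its parent at the annotated start as well as in the coding sequence. A run is a description of these letters and not a measured start of transcription.

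Members were also divided by subunit and by gene structure. The median centred difference was 0.04 over the 45 large-subunit members of at least 10 FPKM and 0.01 over the 31 of the small subunit. Small nucleolar RNA genes, 56 of them, lie inside 29 members, and the median centred difference was 0.01 in these 29 and 0.04 in the other 47. These medians are descriptions, and their differences were not tested. Across the 76 members, the Spearman correlation of the centred difference with the length of 1 annotated transcript per gene was -0.289, or -0.229 without control replicate 2. Within libraries, the departure from the family correlated with that length at -0.371 in SMA replicate 3 and 0.309 in control replicate 3. The annotated transcript may not be the one expressed, members are not independent, and what part length had in the differences was not tested.

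Relatives outside the name rule were read beside the members. Fau, whose product is processed into a small-subunit protein, had 150, 194 and 120 FPKM in control and 137, 133 and 134 FPKM in SMA libraries. Control replicate 2 was highest and control replicate 3 lowest, and the groups overlapped. Rack1, a scaffold on the small subunit that the files list as Gnb2l1, had 137, 157 and 113 FPKM in control and 139, 130 and 129 FPKM in SMA libraries. Rps3a1, of the small subunit, had 144, 176 and 119 FPKM in control and 129, 131 and 130 FPKM in SMA libraries. The groups of both genes overlapped too. Rpl22l1, a paralog of Rpl22, had 18.1, 13.8 and 21.4 FPKM in control and 12.7, 12.8 and 13.9 FPKM in SMA libraries. SMA replicate 3 lay just above control replicate 2, and the other SMA libraries below every control. Rpl7l1, a paralog of Rpl7, had 12.5, 12.3 and 10.6 FPKM in control and 10.2, 10.02 and 9.44 FPKM in SMA libraries, which did not overlap. Of 6 relatives listed, limma at an unadjusted p under 0.05 found 0 higher and 1, Rpl22l1, lower, beside 3.4% and 2.39% of all genes. Rpl22l1 had a log2(FPKM + 1) difference of -0.39 (adjusted p of 0.683 by limma after Benjamini-Hochberg), or -0.55 without control replicate 2. The median of the list was -0.16 with 0 positive, beside 0.04 for all genes. Without control replicate 2 the median was 0.00012 with 3 positive, beside 0.0016 for all genes. Rpl22l1 was then again the 1 lower gene, beside 5.2% of all genes.

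The machinery that makes ribosomes was counted in lists. The list of RNA polymerase I, which transcribes ribosomal RNA, held 11 genes. At an unadjusted p under 0.05, limma found 0 of them higher and 0 lower in SMA, beside 3.4% and 2.39% of all genes. Their median difference was 0.01 beside 0.04 for all genes. Without control replicate 2, 1 of them, Polr1a, was lower, beside 5.2% of all genes, and the median was -0.03. Its initiation factor Rrn3 had 22.3 ± 2.71 FPKM in control and 23.3 ± 1.54 FPKM in SMA (SD, n = 3 per group). By library, Rrn3 had 24.7, 19.4 and 22.9 FPKM in control and 23.8, 21.6 and 24.5 FPKM in SMA. Without control replicate 2 its control mean lay above its SMA mean. Ubtf, which opens ribosomal DNA for transcription, had 21.5 ± 1.35 and 20.6 ± 0.930 FPKM (SD, n = 3 per group). Among 15 genes of small nucleolar ribonucleoproteins and the nucleolus, limma found 0 higher and 0 lower at that threshold. The shares of all genes were again 3.4% and 2.39%. The median of the 15 was 0.01, or -0.03 without control replicate 2. Nop56, a core protein of these particles, had 62.6 ± 13.4 FPKM in control and 64.8 ± 7.18 FPKM in SMA. By library, Nop56 had 68.6, 47.2 and 72.0 FPKM in control and 60.7, 60.5 and 73.1 FPKM in SMA. Without control replicate 2 its control mean lay above its SMA mean. Npm1, an abundant nucleolar chaperone, had 55.1 ± 5.46 FPKM in control and 48.7 ± 1.47 FPKM in SMA.

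Of 37 tested genes of small-subunit assembly, 0 were higher and 1, Utp14a, was lower by limma at an unadjusted p under 0.05, beside 3.4% and 2.39% of all genes, with a median of -0.06. The highest means of that list were those of Nol6, with 20.1 ± 3.34 FPKM in control and 22.8 ± 1.32 FPKM in SMA, and Rrp7a, with 18.2 ± 4.28 and 21.1 ± 0.785 FPKM (SD, n = 3 per group). Utp14a, a protein of the early processing complex named after its values were seen, had 5.38, 5.71 and 5.21 FPKM in control and 4.39, 4.36 and 3.84 FPKM in SMA libraries, which did not overlap. Without control replicate 2, 4 of the 37 were lower, beside 5.2% of all genes, and the median was -0.09. Of 43 genes of large-subunit assembly, 1, Gnl2, was higher and 0 were lower, again beside 3.4% and 2.39% of all genes, with a median of 0.04. Its highest means were those of Rrp1, with 46.2 ± 7.49 FPKM in control and 56.3 ± 1.93 FPKM in SMA, and Gnl3l, with 41.8 ± 10.1 and 47.2 ± 1.70 FPKM (SD, n = 3 per group). In single libraries, Rrp1 had 52.0, 37.7 and 48.9 FPKM in control and 57.9, 54.2 and 56.7 FPKM in SMA. The groups of Rrp1 did not overlap, and control replicate 2 was lowest. Gnl2, a nucleolar GTPase also named after its values were seen, had 21.7, 19.7 and 19.9 FPKM in control and 27.8, 24.5 and 24.2 FPKM in SMA libraries, again without overlap. Without control replicate 2, 3 of the 43 were higher and 4 lower, beside 5.27% and 5.2% of all genes, and the median was 0.02.

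Regulators of pyrimidine-tract messenger RNAs were 12 genes from the mTOR pathway and its RNA-binding proteins. By limma at an unadjusted p under 0.05, 0 were higher and 0 lower, beside 3.4% and 2.39% of all genes. Their median difference was -0.02. Without control replicate 2, 1 of the 12, Ssb, was lower, beside 5.2% of all genes, and the median was -0.03. Cnbp, a nucleic acid binding protein, had 89.4 ± 9.96 FPKM in control and 79.0 ± 1.71 FPKM in SMA, and Tia1, which represses these messenger RNAs under stress, had 76.4 ± 8.73 and 80.3 ± 2.48 FPKM (SD, n = 3 per group). Larp1, which binds the tract and was named after its values were seen, had 28.7, 25.4 and 28.4 FPKM in control and 28.0, 27.3 and 27.6 FPKM in SMA libraries. Its SMA values lay inside the control range. By limma with Benjamini-Hochberg adjustment over all 6 libraries, 0 genes of these 5 lists passed an adjusted p of 0.05, as did 0% of all genes. The counts at an unadjusted p are as given for each list. A p that misses the threshold does not show that a level was equal in both groups.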

How the data were processed

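The deposited values were FPKM, calculated by the authors separately in every library. The submitters' processing notes name HISAT2, Cufflinks and build mm10; versions are not given in the sources used here. FPKM carry no counts, so the depth is unknown. A gene that a library did not list counted as 0. Groups came from the sample labels.

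In R 4.3.3, limma 3.58.1 (lmFit, eBayes with trend, two-sided) compared SMA with control on log2(FPKM + 1), over genes whose mean reached 0.5 FPKM, with Benjamini-Hochberg adjustment over all genes tested. The centred scale subtracted, in each library, the median of members with a mean of at least 10 FPKM. Single values had exact permutation tests. The code was tested on simulated data. Near-identical copies were found with blastn among GENCODE M21 transcripts.

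Members and lists were chosen with earlier results of these data known. The lists were the P stalk, the 5S particle, X-linked members, paralogs and their parents, Diamond-Blackfan anaemia genes, relatives outside the rule, 5 lists of ribosome production and its control, and cell type and sex markers. Named genes were members under 10 FPKM, the 5 highest means, and the 6 highest and 6 lowest centred differences (4 and 4 without control replicate 2). Also named were the 4 highest and 4 lowest departures of control replicate 2, members of the first 4 lists and most of the relatives. The 2 highest means of each production list and Smn1 were named too, and others are marked as chosen after their values were seen. Old symbols were matched where the files use them.

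Alternatives were a pseudocount of 0.1 in place of 1, no minimum or a minimum mean of 1 FPKM, 3 scalings, a replicate block, robust eBayes, leaving out each library, another centre and a stricter reading of the name rule. Chosen after seeing the data were leaving out both libraries with Xist and summing members with their copies. Single-cell libraries were not used.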

Additional observations from a re-analysis of the deposited data

How the results depend on the processing

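Over 22 values of single genes, 368 were recomputed under the alternatives that apply to them. Of these, 364 kept their sign and their side of the adjusted threshold by limma, 0 passed it, and 4 reversed: Rps18 centred without control replicate 1 (-0.15, within a range of -0.15 to 0.33 when each library was left out), and, summed with copies, Rps27rt (-0.25, centred -0.19) and Rpl6l (centred -0.033). Changing the minimum mean, the replicate block and robust eBayes cannot alter a difference, and centring nearly undoes a rescaling of libraries. No main value passed the threshold, so a kept side says little about stability. Leaving out both libraries with Xist and summing with copies were chosen after seeing the data. The cause of the reversals was not tested.

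By limma at an unadjusted p under 0.05, the 3 members higher in SMA (3.4% of all genes) became 2 to 12 when each library was left out (1.25% to 6.07%), 10 without both libraries with Xist (3.16%) and 1 when summed with copies (3.39%). The 2 lower members (2.39%) became 1 to 11 when each library was left out (0.731% to 5.2%) and 1 when summed (2.39%). On the centred scale, the 3 higher members (1.77%) became 5 with quantile normalization (3.21%), 2 to 9 when each library was left out (0.597% to 22.9%, the highest without control replicate 3, where 4 members were higher) and 5 without both libraries with Xist (1.38%). The 1 lower centred member (1.18%) became 2 with no minimum mean (1.01%), 2 with robust eBayes (1.39%), 0 to 2 when each library was left out (0.281% to 4.83%), 0 without both libraries with Xist (1.15%) and 0 when summed (1.38%). Percents are of all genes tested in the same fit. On the centred scale they are not a like background, as the centre is the members' own median. A stricter reading of the name rule gave 82 members.

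With the replicate number as a replicate block, limma gave 0 members past the adjusted threshold, 3 higher and 2 lower (Rpl12 and Rps27l, without Rps27) at an unadjusted p under 0.05, beside 2.08% and 1.77% of all genes. Centred, it gave 2 higher and 0 lower, beside 1.21% and 4.97% of all genes, and 0 members past the adjusted threshold beside 6 of all genes. The pairing had no support in the values: libraries of the same number correlated across genes, after the group means were removed, at -0.037, 0.016 and 0.077.

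FPKM give no counts, so counting error is unknown. With 3 libraries per group, 1 of which stands apart, small differences in single genes could not be resolved, and reads shared among copies limit what a listed level measures.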

Other observations

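Endothelial markers were listed beside the ribosomal protein genes. Cldn5, a protein of the tight junctions of vessels, had 25.8, 20.4 and 25.0 FPKM in control and 16.4, 15.7 and 14.4 FPKM in SMA libraries, which did not overlap. With Pecam1, a surface protein of endothelial cells, it summed to 31.0, 27.4 and 30.2 FPKM in control and 21.0, 18.6 and 18.1 FPKM in SMA libraries. Both genes of this list were lower at an unadjusted p under 0.05 by limma, with and without control replicate 2, beside 2.39% and 5.2% of all genes, and 0 passed an adjusted p of 0.05 after Benjamini-Hochberg.

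The remaining marker lists are given by their summed FPKM. The 5 astrocyte markers, led by Gfap, had 461, 388 and 467 FPKM in control and 442, 464 and 409 FPKM in SMA libraries. The 4 microglia markers, led by P2ry12, had 38.5, 38.8 and 32.9 FPKM against 33.8, 38.01 and 31.1 FPKM. Both lists overlapped between the groups. The 6 skeletal muscle markers, led by Acta1, had 3.05, 4.08 and 0.923 FPKM against 4.59, 7.08 and 2.48 FPKM. Dividing cells, by Top2a and Mki67, had 12.8, 47.6 and 10.8 FPKM against 9.87, 6.51 and 8.39 FPKM, highest in control replicate 2 and in each SMA library below each control library. By limma at an unadjusted p under 0.05, 0 of these 2 genes were lower over all 6 libraries, beside 2.39% of all genes. Both were lower without control replicate 2, beside 5.2% of all genes. Their median log2 difference was -1.07 over all 6 libraries and -0.44 without control replicate 2.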
